A study of Mus musculus with 24 samples.

Results

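The 9 genes described here are the orphan nuclear receptors Nr2f1 and Nr2f2, known as COUP-TFI and COUP-TFII, and 7 genes of interneurons born in the caudal ganglionic eminence, namely Prox1, Sp8, Calb2, Vip, Htr3a, Cck and Npas1. They were found by gene symbol among the 48709 genes of the deposited gene table, and each symbol matched 1 row. The set was chosen from earlier results of these same cortex libraries, with the levels after prenatal exposure known, so the difference between exposed and control cortex is given for them as a description, and their calls in the fit over all genes are counted beside the share of all genes called, without evidence drawn from them. RNA of mouse neonates was sequenced from whole blood and from the dissected cortex, with 12 libraries per tissue, 6 from neonates exposed in utero to nano-sized particulate matter (nPM) and 6 from unexposed controls, and 3 of each sex in every group. Each library is named by its V number. The mice were C57BL/6J by the sample labels and C57BL/6NJ by the study's methods, and were 3 to 5 days old by the labels and taken at day 5 by the protocol. Dams breathed re-aerosolized nPM or filtered air for 5 h on 3 days per week, from gestational day 2 until birth. The labels give the nPM concentration as 300 mg/m3 and the study's methods give the same figure in micrograms. The study states that the 3 neonates of each sex and exposure came from different litters. Whether a male and a female of one exposure shared a litter is not given, and the fits count each neonate as independent. The labels do not tie a blood library to a cortex library of the same animal. Total counts ran from 22301409 to 33804371 per cortex library and from 13595647 to 21895536 per blood library.

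Interneurons of the cortex are inhibitory neurons that are born in the ventral forebrain and migrate into the cortical plate. The caudal ganglionic eminence gives rise to cells marked by the serotonin receptor subunit Htr3a, among them the VIP, calretinin (Calb2) and cholecystokinin (Cck) classes. Nr2f1 and Nr2f2 are transcription factors that are enriched in this eminence and act in the migration of its cells, but they are also made in other places, Nr2f1 in a gradient across cortical progenitors and Nr2f2 in venous and lymphatic endothelium, the amygdala and the hypothalamus. Prox1, Sp8 and Npas1 are transcription factors of the same lineage, and Sp8 and Calb2 are also expressed in interneurons of the olfactory bulb.

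The cortex libraries carried the markers of their tissue. The summed level of Neurod6, Neurod2, Tbr1, Emx1 and Slc17a7 was 614.2 to 837.3 CPM in cortex (CPM, the count of a gene relative to 1e+06 counts of its library) and at most 1.26 CPM in blood. Red cell genes made up 51.8 to 79.1% of the counts in blood and 0.0252 to 0.0701% in cortex. A few cortex libraries stood apart in markers of neighbouring tissue. The summed choroid plexus markers were 37.7 CPM in the control male V14, against 244.7 to 521.9 CPM in the other 11 libraries. The summed olfactory bulb markers were 288.8 CPM in the control female V10 and 300.7 CPM in the nPM male V15, against 175.1 to 226.6 CPM in the other 10. V10 was also the highest library in striatum markers (585.1 CPM, next 490.5) and in vein, lymph vessel, mural and meningeal markers (566.2 CPM, next 458.7), and V14 the lowest in striatum markers (265.2 CPM, next 343.5) and endothelium markers (227.8 CPM, next 287.0). The summed hippocampus and dentate gyrus markers were 299.7 CPM in the control female V19 and 265.5 CPM in V10, against 213.0 to 241.4 CPM in the other 10. Erythroid markers were 634.6 to 696.2 CPM in V19, V20, V23 and V24, the 4 libraries of sequencing lane 3, against 251 to 461.1 CPM in the 8 of lane 2. For Nr2f2, Calb2, Sp8 and Prox1, values without one or more of these libraries are given with their results.

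In control cortex the 9 genes covered a wide range of levels. As CPM per kilobase of gene length (RPKM), Cck was highest with 104.7 ± 22.3 (SD, n = 6), and its lowest control library lay above the highest library of every other member. Next came Nr2f1 with 14.7 ± 1.28, Calb2 with 14.2 ± 3.00 and Vip with 9.48 ± 2.13, of which neighbours in the order overlapped. The remaining 5 were lower, Npas1 with 3.10 ± 0.426, Prox1 with 2.44 ± 0.375, Nr2f2 with 1.82 ± 0.107, Htr3a with 1.46 ± 0.229 and Sp8 with 1.13 ± 0.330, and each overlapped the next in the order. Vip and Npas1 did not overlap. Nr2f2 was thus among the less abundant members per length, and it varied least between control animals in proportion to its level. In nPM cortex its level per length was 2.70 ± 0.361, between Npas1 with 2.88 ± 0.240 and Prox1 with 2.45 ± 0.362.

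Nr2f2 was the member most separated by exposure. Its level in nPM cortex was 19.8 CPM in V13, 20.8 in V9, 21.1 in V15, 25.3 in V11, 25.4 in V23 and 27.4 in V20. In control cortex it was 14.7 CPM in V12, 15.1 in V16, 15.4 in V24, 15.6 in V14, 16.1 in V10 and 17.3 in V19. The groups did not overlap, and the controls lay close together while the nPM libraries spread over a wider range. The mean of the nPM group, 23.3 ± 3.12 CPM, was 1.48 times that of the control group, 15.7 ± 0.920 CPM (SD, n = 6 each). The fitted log2 fold change was 0.57 with a standard error of 0.08 (edgeR, adjusted for sex and RNA integrity number). By sequencing lane, which the labels give, the log2 ratio of the means was 0.50 among the 8 libraries of lane 2 and 0.69 among the 4 libraries of lane 3. In tissue RNA, more Nr2f2-expressing cells and more Nr2f2 RNA per cell cannot be told apart, and this holds for all members.

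The sequence before 1 RefSeq start of Nr2f2 is shown because Nr2f2 was the only member whose groups did not overlap. Nr2f2 (ENSMUSG00000030551) lies on the minus strand of chromosome 7 from 70351944 to 70366735 (mm10). The sequence is the 250 bases before the RefSeq start on GRCm38.p6, chr7:70366747-70366996, printed 5′ to 3′ on the strand of the gene, with the CpG in capitals.
Nr2f2 upstream: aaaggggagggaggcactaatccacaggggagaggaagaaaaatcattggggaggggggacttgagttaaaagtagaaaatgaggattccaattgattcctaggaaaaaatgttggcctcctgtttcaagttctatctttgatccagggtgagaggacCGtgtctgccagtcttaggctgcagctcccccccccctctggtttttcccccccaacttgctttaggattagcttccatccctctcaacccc
The window holds 1 CpG and 50% G or C, against medians of 6 CpG and 52.4% over the same 250 bases of all 32851 RefSeq promoter windows. The sequence before the start of the principal Nr2f2 transcript was not available. The CpG number therefore describes this window only and not the main promoter of the gene. Among the 11 windows of the 7 members that have one, the CpG number ran from 1 to 32. None was given for Calb2 or Htr3a. This RefSeq start lies beyond the 5′ end that the study's annotation gives the gene, inside the body of the opposite-strand gene B130024G19Rik, and other starts of Nr2f2 were not examined.

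Nuclear receptors of this family bind repeats of the half-site AGGTCA. On either strand (AGGTCA or TGACCT) this motif was found in 1 of the 11 member windows, against 16.3% of all 32851 windows (300 bases each, 250 before and 50 after the start). The match was in 1 of the 3 windows of Sp8, before a RefSeq start that lies within the gene as the study's annotation gives it (chromosome 12, 118846329 to 118852578, plus strand). The fragment is at chr12:118847101-118847130 on the plus strand, with the half-site in capitals.
Sp8 fragment: cgccggcgccgaTGACCTcacggcgcgcgc
A match of letters in a window is a description and not evidence of binding.

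Nr2f1, the close relative of Nr2f2, was similar in both groups. It ranged from 66.3 to 79.3 CPM after nPM (median 73.6) and from 59.4 to 76.1 CPM in controls (median 71.6). The ranges overlapped over most of their length, and the log2 fold change was 0.08 (SE 0.05), or 0.03 without V20 and 0.04 without V10. Nr2f1 (ENSMUSG00000069171) lies on chromosome 13 from 78188973 to 78199757, minus strand. The more distant family member Nr2f6 had 11.2 ± 1.43 CPM in the nPM group and 12.2 ± 0.646 CPM in the control group. Its fitted change was -0.13 on the log2 scale (SE 0.08), with an adjusted p of 0.884 by edgeR's quasi-likelihood test.

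Both COUP-TF genes are overlapped at their start by a non-coding gene on the opposite strand, and the sources used here do not state whether reads were counted by strand, so reads of the shared stretch cannot be told apart. B130024G19Rik shares 1826 bases with Nr2f2 and had 2.46 ± 0.866 CPM with nPM and 1.86 ± 0.226 CPM without, a log2 difference of 0.40 (SE 0.21; edgeR adjusted p = 0.867). Its level was low beside that of Nr2f2, and its nPM range of 1.65 to 3.89 CPM overlapped its control range of 1.53 to 2.14 CPM. A830082K12Rik shares 1741 bases with Nr2f1 and had 24.6 ± 1.85 CPM with nPM and 26.1 ± 3.13 CPM without, a log2 difference of -0.08 (SE 0.07; edgeR adjusted p = 0.894). Prox1 is overlapped by Prox1os and Gm28172, and Npas1 by n-R5s151. Each of these 3 had at most 26 counts in a cortex library.

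Calb2 encodes calretinin, a calcium-binding protein of interneurons, and tissue RNA does not show which cells made it. Its level after nPM was 28.7 CPM in V23, 30.1 in V13, 32.7 in V11, 35.5 in V9, 41.5 in V20 and 42.1 in V15. In controls it was 18.6 CPM in V16, 21.2 in V12, 21.3 in V14, 26.6 in V19, 28.5 in V24 and 32.3 in V10. Of the nPM libraries, 4 were above every control, and all 6 were above the control median of 23.98 CPM, so that the groups overlapped in part. The means were 35.1 ± 5.70 and 24.8 ± 5.23 CPM, and the log2 fold change was 0.49 (SE 0.10). The log2 ratio of the means was 0.59 in lane 2 and 0.35 in lane 3. The highest library of each group, V15 and V10, was also the highest of its group in olfactory bulb markers. Without both, the log2 fold change of Calb2 was 0.44 (SE 0.11) and that of Nr2f2 was 0.59 (SE 0.10). Without V14 they were 0.46 (SE 0.10) and 0.58 (SE 0.09).

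**Figure D1:**
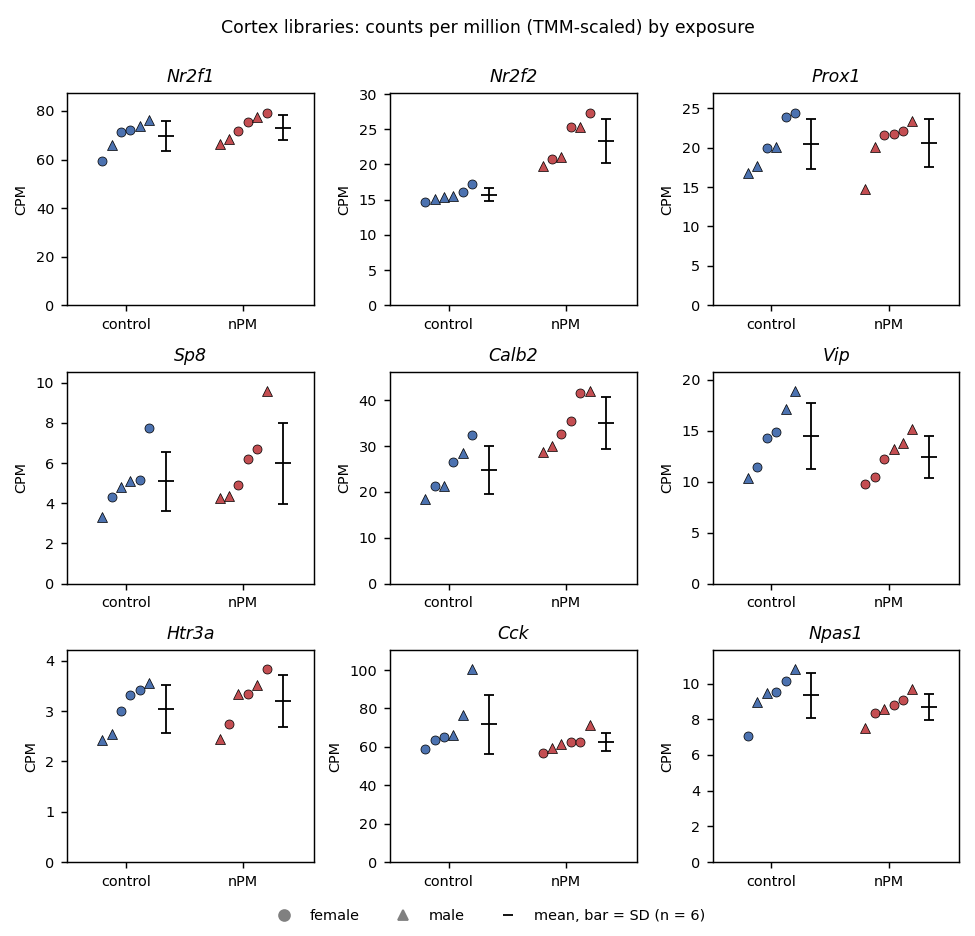
Level of each of the 9 genes in the 12 cortex libraries, in CPM scaled by TMM, by exposure. Circles are females and triangles males, and the bar beside each group is the mean with its SD (n = 6). The 6 nPM libraries of Nr2f2 lie between 19.8 and 27.4 CPM, all above the highest control at 17.3 CPM, while the groups of the other 8 genes overlap.

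The other 3 transcription factors overlapped between the groups. Prox1, a homeodomain factor that acts in the maturation of caudal eminence cells, had 14.8 to 23.3 CPM after nPM (mean 20.6 ± 3.04) and 16.8 to 24.5 CPM in controls (mean 20.5 ± 3.15), and the fitted log2 fold change was 0.00 (SE 0.09). Its highest libraries, the control females V10 (24.5 CPM) and V19 (23.9 CPM), were also the highest in hippocampus and dentate gyrus markers. The fold change of Prox1 was 0.01 without V10 and 0.05 without V19. The part of hippocampal tissue in its level was not tested. Sp8, a zinc finger factor, had 4.25 to 9.59 CPM (median 5.55) and 3.31 to 7.75 CPM (median 4.98). Its log2 fold change was 0.22 (SE 0.18). V15 and V10 were again the highest Sp8 libraries of their groups, and the fold change was 0.02 without V15 and 0.11 without both. It was 0.12 without V14 and 0.33 without V16. Npas1, a bHLH-PAS factor, had 7.53 to 9.67 CPM after nPM (median 8.70) and 7.05 to 10.8 CPM in controls (median 9.51). Its log2 fold change was -0.11 (SE 0.10), and ran from -0.18 without V19 to -0.07 without V23 and -0.05 without V16.

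The peptide and receptor genes also overlapped between the groups. Vip, the vasoactive intestinal peptide, had 9.75 to 15.1 CPM after nPM (median 12.7) and 10.4 to 18.9 CPM in controls (median 14.6). Its log2 fold change was -0.23 (SE 0.13), and 5 of the 6 nPM libraries were below the control median. Without V16, the lowest control, the fold change was -0.36 (SE 0.06). Cck, the cholecystokinin peptide, had 57.0 to 71.3 CPM (median 62.0) and 58.6 to 100.4 CPM (median 65.6). Its log2 fold change was -0.19 (SE 0.09) and -0.09 (SE 0.06) without V24, the control male with the highest value. V24 also had the highest sum of the 5 cortex markers, 837.3 CPM, next 709.8 CPM in V13. In the longer list of cortical projection neuron markers it had 2983 CPM, below V14 with 3157 CPM. Tissue RNA does not show which cells made Cck, and this was not tested. Htr3a had 2.44 to 3.83 CPM after nPM (median 3.34) and 2.42 to 3.57 CPM in controls (median 3.16), and its log2 fold change was 0.07 (SE 0.14). Between lane 2 and lane 3 the log2 ratio of the means changed sign for Prox1 (0.14 and -0.27), Htr3a (0.25 and -0.27) and Npas1 (-0.16 and 0.01). It was 0.00 and 0.19 for Nr2f1, 0.23 and 0.26 for Sp8, -0.10 and -0.44 for Vip, and -0.04 and -0.50 for Cck.

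Counted over the set, 6 members had a higher and 3 a lower fitted level after nPM, with a median log2 fold change of 0.07. Over all 20857 genes tested in cortex the median was -0.00242, with 10196 genes higher and 10661 lower. At the nominal cutoff of the study, an unadjusted p under 0.005 in edgeR's quasi-likelihood test, 2 members passed, Nr2f2 and Calb2, both higher, beside 0.614% of all genes in either direction (0.35% higher and 0.264% lower). At an adjusted p under 0.05, 1 member passed, Nr2f2, beside 0.0144% of all genes, which were 3 in number. The groups of 1 member did not overlap, beside 0.129% of all genes with every nPM library above every control and 0.0671% with every nPM library below. Because the members were chosen on this contrast, their counts say nothing about the set. These counts varied with the fit, which is given as a limit on the calls. At the nominal cutoff Vip, lower, also passed without V16, and Cck, lower, when genes were kept on a count in any library. The call of Nr2f2 past correction held without V9, V13 or V24 and was lost without any 1 of the other 9 libraries. Calb2 was past correction with DESeq2, with genes kept that had a count in any library, and without V24.

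The choice of members used the nPM contrast, of which the values within each sex are a part, while the difference of the nPM effect between the sexes was outside it. Nr2f2 was higher after nPM in females (24.5 ± 3.35 against 16.02 ± 1.32 CPM) and in males (22.1 ± 2.93 against 15.4 ± 0.214 CPM; SD, n = 3 each). Calb2 was also higher in both, with 36.5 ± 4.51 against 26.7 ± 5.56 CPM in females and 33.6 ± 7.36 against 22.8 ± 5.10 CPM in males. Fitted within each sex, the log2 fold change of Nr2f2 was 0.61 (SE 0.11) in females and 0.59 (SE 0.11) in males, and that of Calb2 was 0.51 (SE 0.10) and 0.38 (SE 0.16).

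The nPM-by-sex term of edgeR's quasi-likelihood test passed an adjusted p of 0.05 for none of the 9 members and for 0% of all genes tested. For Nr2f2 the term, male minus female, was -0.07 on the log2 scale (95% interval -0.40 to 0.25, from the standard error) and for Calb2 it was -0.09 (-0.49 to 0.31). These intervals leave room for sex differences close in size to the effects themselves. With 1 library left out both terms changed sign, from -0.22 without V23 to 0.12 without V20 for Nr2f2 and from -0.27 without V19 to 0.09 without V24 for Calb2, and that of Calb2 was 0.11 without RNA integrity number in the model. Cck had the smallest adjusted p, 0.591 by edgeR, with a term of -0.32 (-0.66 to 0.03). Its means were 60.7 ± 3.22 and 62.3 ± 3.30 CPM in nPM and control females, and 64.1 ± 6.31 and 81.1 ± 17.5 CPM in nPM and control males, where V24 was the highest. Leaving out 1 library at a time, the term of Cck ran from -0.42 without V20 to -0.10 without V24, with the smallest unadjusted p, 0.0127 by edgeR, without V16 (-0.41). With genes kept that had a count in any library it was -0.31, and its adjusted p was 0.159 by edgeR (0.00333 before adjustment). With all 12 libraries and the filter used throughout, no member reached an unadjusted p of 0.05 for this term in edgeR, against 2018 of all genes, and no member passed the adjusted threshold with DESeq2 or limma voom.

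**Figure D2:**
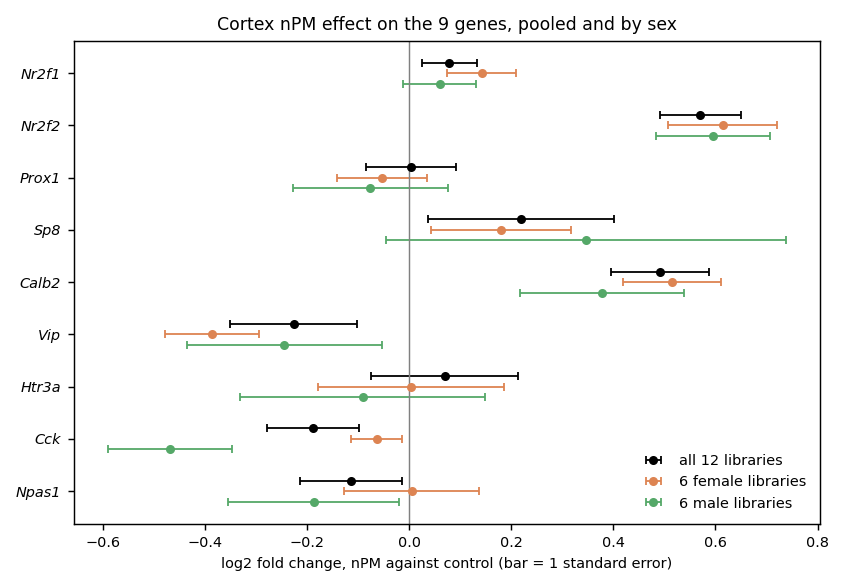
Log2 fold change of each gene between nPM and control cortex, with 1 standard error on each side, fitted on all 12 libraries and on the 6 libraries of each sex. Nr2f2 lies at 0.57, 0.61 and 0.59 and Calb2 at 0.49, 0.51 and 0.38, while Cck lies at -0.06 in females and -0.47 in males.

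Sex itself was a separate comparison. With exposure and RNA integrity number in the model, 4 of the 9 members had an unadjusted p under 0.05 for sex in edgeR, beside 6.09% of all genes. Prox1 was 22.3 ± 1.67 CPM in females and 18.8 ± 3.01 CPM in males (SD, n = 6), a log2 difference of -0.33 (SE 0.10, male minus female). Calb2 was 31.6 ± 7.03 and 28.2 ± 8.19 CPM, with a difference of -0.34 (SE 0.11) that was -0.17 (SE 0.12) when RNA integrity number was left out of the model. The sexes overlapped in both genes. Vip went the other way with 12.1 ± 2.05 CPM in females and 14.7 ± 3.02 CPM in males, a difference of 0.32 (SE 0.15), and Cck with 61.5 ± 3.04 and 72.6 ± 14.998 CPM, a difference of 0.24 (SE 0.10). None of these passed correction over all genes, since the adjusted p by edgeR was 0.797 for all 4, and 0.0336% of genes passed it. With genes kept that had a count in any library, Prox1, Calb2 and Cck passed, with adjusted p of 0.0357, 0.00448 and 0.0289 by edgeR. Without V16 Vip passed, with a difference of 0.57 and an adjusted p of 0.0126 by edgeR. Without V10 the differences of Vip and Cck were smaller, 0.21 (SE 0.19) and 0.13 (SE 0.13), and without V24 that of Cck was 0.15 (SE 0.07). The unadjusted p by edgeR was under 0.05 in 12 of the 12 fits without 1 library for Prox1 and Calb2, in 8 for Cck and in 3 for Vip. Over the 8 other settings and the 12 fits without 1 library, the adjusted p of these 4 genes ran from 0.00448 to 1.00.

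Animals of one exposure differed among themselves, and these differences played no part in choosing the members. After the mean of each exposure group was taken out of log2(CPM + 0.5), 36 pairs of members were correlated over the 12 cortex libraries. None passed an adjusted p of 0.05 (permutation test within exposure groups, 100000 resamples, two-sided). The smallest adjusted p was 0.234, which 5 pairs shared. The largest r was that of Prox1 with Htr3a (r = 0.72, rho = 0.55, unadjusted permutation p = 0.0133), followed by Sp8 with Calb2 (r = 0.69, rho = 0.66, permutation p = 0.0154) and Vip with Cck (r = 0.67, rho = 0.62, permutation p = 0.0303). Without the 2 libraries farthest from the median of the first gene, these r were 0.46, 0.43 and 0.58. Calb2 with Htr3a had r = 0.66 (rho = 0.66, permutation p = 0.0325; 0.57 without the 2 farthest), and Nr2f2 with Npas1 had r = -0.52 (rho = -0.48, permutation p = 0.0324; -0.68 without the 2 farthest). Within lane 2 alone (8 libraries) the r of the 5 pairs, in this order, were 0.63, 0.77, 0.67, 0.53 and -0.47, and lane 3 held too few libraries. Nr2f2 and Calb2 had r = 0.22 (rho = 0.22, permutation p = 0.463). Before correction, 6 of the 36 pairs had a permutation p under 0.05.

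**Figure D3:**
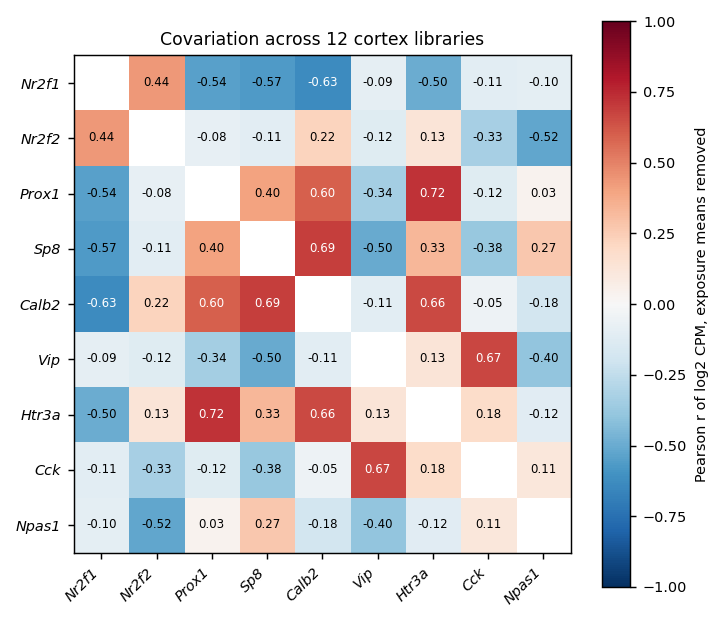
Pearson r between each pair of the 9 genes over the 12 cortex libraries, on log2(CPM + 0.5) with the mean of each exposure group removed. Red is positive and blue negative. Prox1 with Htr3a (0.72), Sp8 with Calb2 (0.69) and Vip with Cck (0.67) have the highest r, and no pair passed correction over the 36.

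Over the same 12 libraries, without removing exposure, the 5 genes whose pattern was most like that of Nr2f2 were Acvr2a (Pearson r = 0.90), Slc7a3 (0.88), Nnat (0.87), Cdkn1a (0.86) and Usp29 (0.85), among 15700 genes with a mean of at least 1 CPM. All points share exposure, which enters each r. Acvr2a, an activin receptor, had 155.9 ± 11.2 CPM in nPM and 131 ± 8.10 CPM in control cortex. Slc7a3, a cationic amino acid transporter, had 18.97 ± 0.986 and 14.8 ± 1.57 CPM. Nnat, an imprinted gene, had 366.9 ± 71.6 and 271.1 ± 22.9 CPM. Of the other members Calb2 came closest, with r = 0.71 at rank 99, followed by Nr2f1 with 0.46 at rank 1122. Cck (-0.51), Npas1 (-0.48) and Vip (-0.38) ran against Nr2f2.

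Other genes of the caudal eminence lineage did not share a direction. Of 17 tested, 10 were higher and 7 lower after nPM, with a median log2 fold change of 0.07, and 2 passed the nominal cutoff, both higher. Npy2r, a neuropeptide Y receptor, had 13.03 ± 1.16 CPM after nPM and 10.2 ± 1.66 CPM in controls (log2 fold change 0.35, edgeR adjusted p = 0.566). Chat, the acetylcholine-synthesising enzyme, had 0.754 ± 0.234 and 0.310 ± 0.228 CPM (1.35, edgeR adjusted p = 0.687). Neither passed correction. Reln, the most abundant, had 348.6 ± 19.9 and 320.1 ± 29.7 CPM.

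Among 22 genes of the COUP-TF family, their partners and upstream signals, 9 were higher and 13 lower, with a median log2 fold change of -0.03. Of these, 1 passed the nominal cutoff, Nrp2, a semaphorin receptor known as a target of COUP-TFII in migrating interneurons. Nrp2 had 77.4 ± 10.9 CPM after nPM and 60.0 ± 13.3 CPM in controls, with a log2 fold change of 0.37 (SE 0.09; edgeR adjusted p = 0.493). Its groups overlapped, with 2 nPM libraries above every control. The next in order were Smo, the Hedgehog signal transducer, with 16.4 ± 1.06 and 14.4 ± 1.05 CPM, and the retinoid receptor Rxrb with 43.9 ± 0.931 and 48.0 ± 3.72 CPM (edgeR adjusted p = 0.844 for both). The corepressor Ncor1, the most abundant, had 285.9 ± 6.83 and 299 ± 15.2 CPM.

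Genes of the medial eminence, the other source of cortical interneurons, were 9 higher and 6 lower of 15, with a median of 0.03. Chodl, a marker of long-range somatostatin cells, was the 1 that passed the nominal cutoff (5.44 ± 1.124 against 3.32 ± 0.648 CPM, edgeR adjusted p = 0.493). Lhx8 had 1.04 ± 0.670 and 0.520 ± 0.534 CPM and Tac1 17.95 ± 2.18 and 13.7 ± 4.60 CPM, and neither passed. Satb1, the most abundant, had 157.1 ± 8.79 and 168.3 ± 20.5 CPM. Genes of GABAergic cells as a whole were 13 higher and 1 lower of 14, with a median of 0.16. Gad1, the GABA-synthesising enzyme, was the 1 past the nominal cutoff, with 115.3 ± 9.40 CPM after nPM and 95.9 ± 17.4 CPM in controls (edgeR adjusted p = 0.493). Gad2 had 94.9 ± 5.61 and 83.1 ± 18.8 CPM, Sp9 3.33 ± 0.588 and 2.74 ± 1.06 CPM, and the receptor Erbb4, the most abundant of the 14 over both groups, 105.2 ± 30.2 and 110.4 ± 21.1 CPM.

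**Figure D4:**
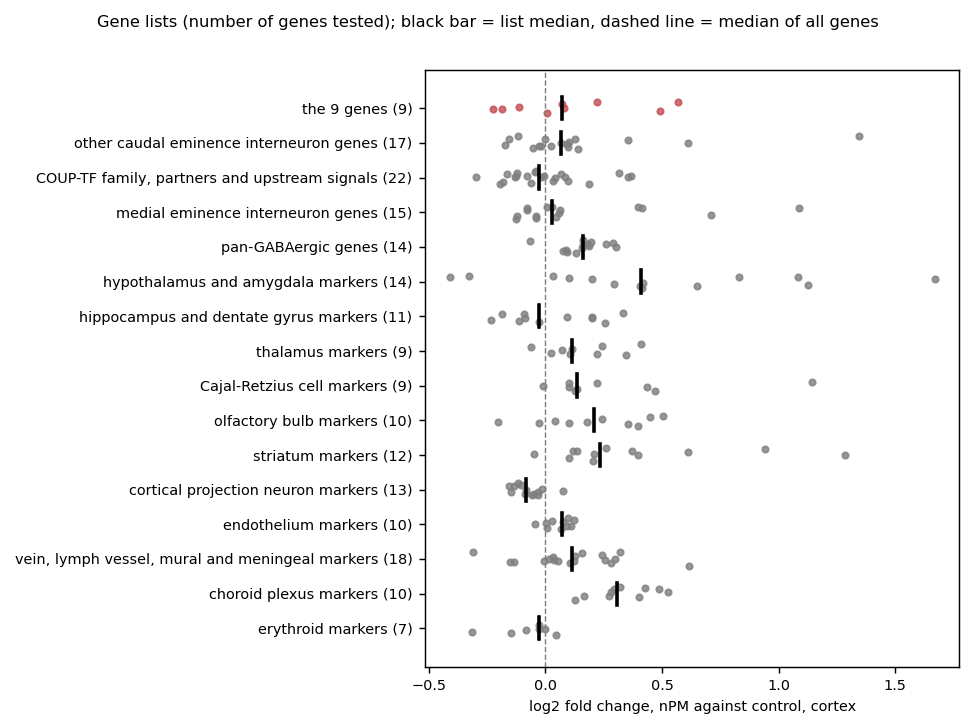
Log2 fold change between nPM and control cortex of the 9 genes (red) and of the tested genes of 15 other lists (grey), with each list's median as a black bar and the median of all genes dashed. The hypothalamus and amygdala markers have the highest median, 0.41, and the cortical projection neuron markers the lowest, -0.08.

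Nr2f2 is also expressed in the amygdala and hypothalamus, and markers of these regions, listed with earlier results of these data known, were set beside it as a description. Of 27 hypothalamus and amygdala markers 14 were tested, 12 of them higher and 2 lower, with a median log2 fold change of 0.41. At the nominal cutoff 7 were higher, namely Zcchc12, Gpr101, Baiap3, Dlk1, Hap1, Ecel1 and Irs4, and 1 was lower, Trh, of which Dlk1, Hap1, Ecel1, Irs4 and Trh are named after their values were seen. Zcchc12, the most abundant, had 94.3 ± 12.6 CPM after nPM and 70.6 ± 10.3 CPM in controls, and the orphan receptor Gpr101 had 5.23 ± 1.122 and 2.43 ± 0.819 CPM (edgeR adjusted p = 0.0441 for both). Together with Nr2f2 they were the 3 genes past correction. Baiap3 had 14.01 ± 2.94 and 8.97 ± 2.83 CPM (edgeR adjusted p = 0.286). The 13 markers that were not tested had 0 counts in at least 1 cortex library, and by their means 11 were higher and 1 was lower after nPM, while Nkx2-4 was at 0 in all 12 libraries. Of the 13, 11 had at most 9 counts in any library, and Sim1 and Calcr, named after their values were seen, reached 25 and 30 counts.

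The summed level of the 27 hypothalamus and amygdala markers after nPM was 173.3 CPM in V13, 194.8 in V11, 195.3 in V23, 222.4 in V9, 227.9 in V15 and 277.6 in V20. In controls it was 133.7 CPM in V16, 135.1 in V14, 150.4 in V19, 164.3 in V12, 170.4 in V24 and 211.4 in V10. The nPM libraries V9, V15 and V20 were above the highest control, V10, and all 6 were above the highest of the other 5 controls. The order of the libraries matched that of Nr2f2 in part. V20 was the highest and V13 the lowest nPM library in both, but V15 and V9, next after V20 here, were among the 3 lowest nPM libraries for Nr2f2. The highest control for Nr2f2 was V19, with 150.4 CPM here, and the highest control here was V10. The part of these tissues in the levels of Nr2f2 and Calb2 was not tested.

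Striatum markers were 11 higher and 1 lower of 12 (median 0.23), olfactory bulb markers 8 higher and 2 lower of 10 (median 0.21), thalamus markers 8 higher and 1 lower of 9 (median 0.12) and Cajal-Retzius cell markers 8 higher and 1 lower of 9 (median 0.14), and none passed the nominal cutoff. Their most abundant genes were Foxp1 for the striatum (160.5 ± 7.30 CPM after nPM and 166.6 ± 13.7 CPM in controls), Slc17a6 for the thalamus (76.4 ± 5.43 and 70.7 ± 4.77 CPM) and Reln for Cajal-Retzius cells. The summed Cajal-Retzius markers were 435.9 to 490.8 CPM in the nPM libraries. They were 470.6 CPM in the control V19 and 394.6 to 423.6 CPM in the other 5 controls, so that V19 alone brought the groups to overlap. The part of these cells in the level of Calb2 was not tested. Hippocampal markers, led by Zbtb20 (104.3 ± 5.40 and 114.2 ± 32.2 CPM), were 5 higher and 6 lower of 11 (median -0.03). Of these Fibcd1 was higher (21.7 ± 1.75 against 17.2 ± 3.60 CPM) and Pou3f1 lower (23.8 ± 0.821 against 27.1 ± 1.45 CPM, all 6 nPM libraries below all controls) at the nominal cutoff, with edgeR adjusted p of 0.807 and 0.642. Cortical projection neuron markers were 1 higher and 12 lower of 13 (median -0.08), and none passed. Mef2c led them, and their summed level was 2757 ± 70.8 CPM after nPM and 2958 ± 229 CPM in controls. It was 2653 to 2863 CPM in the nPM libraries, 2509 CPM in the control V10 and 2983 to 3157 CPM in the other 5 controls, so that V10 alone brought the groups to overlap.

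The olfactory bulb sum after nPM was 200.4 CPM in V13, 202.4 in V11, 214.2 in V23, 216.1 in V9, 226.6 in V20 and 300.7 in V15. In controls it was 175.1 CPM in V14, 182.4 in V19, 186.3 in V24, 194.1 in V16, 210.3 in V12 and 288.8 in V10. The order of the nPM libraries V15, V20 and V9 at the top of this list was also their order for Sp8 and for Calb2, and V10 led the controls in all of them. The most abundant gene of the list was Meis2 with 113.6 ± 14.4 and 105.7 ± 19.6 CPM. Tbx21, a marker of the projection neurons of the olfactory bulb that was singled out after its values were seen, had 60 counts in V15 and 24 in V10, against 1 to 7 counts in the other 10 cortex libraries. The part of olfactory bulb tissue in the levels of Sp8 and Calb2 was not tested.

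**Figure D5:**
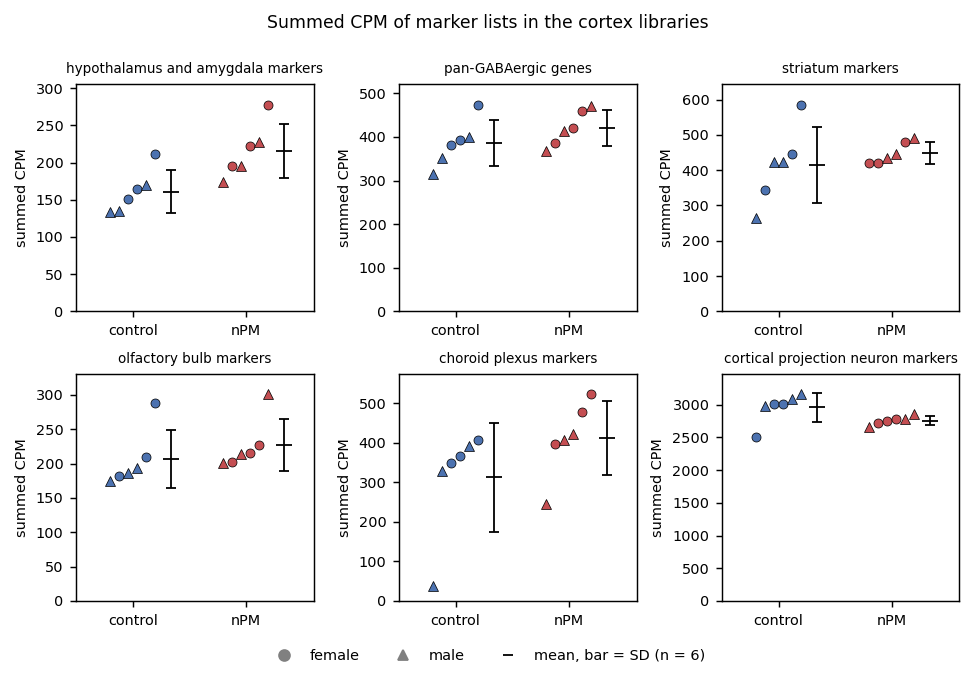
Summed CPM of 6 marker lists in each cortex library by exposure, with circles for females, triangles for males and the mean and SD of each group (n = 6). The hypothalamus and amygdala sum was 215.2 ± 36.5 CPM after nPM and 160.9 ± 28.9 CPM in controls, and the control male V14 stands apart in the choroid plexus panel at 37.7 CPM.

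Because Nr2f2 is a marker of veins and lymph vessels and Prox1 of lymph vessels, vascular lists were set beside them. Endothelium markers were 9 higher and 1 lower of 10, with a median log2 fold change of 0.07 and none past the nominal cutoff, and were led by Slco1c1 (91.7 ± 5.25 and 86.9 ± 8.38 CPM). Markers of veins, lymph vessels, mural cells and meninges were 14 higher and 4 lower of 18 (median 0.11). Of these Dcn, a proteoglycan of meningeal fibroblasts, passed the nominal cutoff with 30.01 ± 2.32 CPM after nPM and 19.6 ± 5.43 CPM in controls (edgeR adjusted p = 0.493). The summed level of this list was 424.9 ± 20.8 and 423 ± 80.6 CPM, led by the pericyte gene Rgs5 with 169.8 ± 8.32 and 163.4 ± 14.6 CPM. Choroid plexus markers were higher in 10 of 10 (median 0.31), none past the cutoff, and led by Ttr with 382 ± 89.7 and 288.3 ± 130.8 CPM. The control values include V14, whose choroid plexus sum was 37.7 CPM, while the other 5 controls had 327.2 to 405.5 CPM and the nPM libraries 244.7 to 521.9 CPM. Erythroid markers were 1 higher and 6 lower of 7 (median -0.03), led by Hbb-bs with 248.5 ± 112 and 259.2 ± 97.6 CPM.

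Blood held next to none of the 9 transcripts. With the filter used throughout, none of them was tested there, since each had 0 counts in at least 1 library. With genes kept that had a count in any library, every member but Sp8 was tested, and none passed the nominal cutoff or correction. Sp8 had 0 counts in all 12 blood libraries, which allows up to 0.137 to 0.221 CPM per library (3 counts, for counting error only). In 10 of the 12 blood libraries the 9 genes together had 1 to 9 counts. The exceptions were the control female V2, with 86 counts of Nr2f2, 70 of Prox1, 38 of Nr2f1 and 0 of Calb2, and the nPM male V5, with 32 counts of Calb2 and 9 each of Nr2f1 and Prox1. V2, which was left out of the blood fits, had a TMM factor of 6.561, against 0.653 to 1.078 in the other 11, so its levels depend on the scaling, and both are given, the TMM values as an alternative chosen after seeing the data. By total counts V2 was above the 10 blood libraries other than V2 and V5 in 14 of 15 marker lists and below them in the erythroid one. By TMM it was above them in 6 lists, within their range in 3 and below it in 6. The lists in which it was above under both were the vein, lymph vessel, mural and meningeal markers (2487 CPM against 45.5 to 91.3 by total counts, 379 against 42.2 to 112.6 by TMM), the hippocampal, thalamus, olfactory bulb and hypothalamus and amygdala markers, and the COUP-TF family list. Endothelium markers turned, with 53.2 CPM in V2 against 9.65 to 19.5 CPM by total counts and 8.11 against 13.1 to 24.04 CPM by TMM, and so did the GABAergic genes, with 22.4 against 2.27 to 5.53 CPM and 3.41 against 3.47 to 5.24 CPM. The hypothalamus and amygdala markers were 26.1 CPM in V2 and 10.8 CPM in V5 by total counts, against at most 0.621 CPM in the 10, and 3.97 and 10.7 CPM by TMM, against at most 0.752 CPM. V5, with a TMM factor of 1.007, was above the 10 also in GABAergic genes (7.21 CPM) and striatum markers (17.5 CPM against at most 14.4 CPM) by either scaling, and in hippocampal markers by TMM alone. It was within their range in 12 of 15 lists by total counts and in 10 by TMM, and below it in endothelium markers by TMM. By total counts the 5 cortex markers had 0.283 CPM in V2 and 0.271 CPM in V5. They were at 0 in V1, V3, V4, V6 and V8 and at 0.0518 CPM in V7, the other blood libraries of lane 1. In V17, V18, V21 and V22, the blood libraries of lane 3, they had 0.642 to 1.26 CPM. The part of other tissues in the counts of V2 and V5 was not tested.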

How the data were processed

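RNA was depleted of ribosomal RNA with RiboZero Gold. The authors checked reads with FastQC, trimmed them where needed with Trimmomatic, aligned them with HISAT2 (genome mm10), and assigned reads to genes of Gencode M11 by featureCounts 1.5.0-p3. Their deposited counts, without normalization, were used for every value. Gene lengths came from their gene table, which also holds the authors' mean RPKM, not used here. The members and gene lists were chosen with earlier results of these data known. Counts were tested with edgeR 4.0.16 (R 4.3.3; quasi-likelihood F test, TMM, two-sided, Benjamini-Hochberg adjustment) on genes that no library of a fit had at 0. The nPM and sex models had exposure, sex and RNA integrity number (RIN), and the interaction model added exposure by sex. DESeq2 1.42.0 and limma 3.58.1 (voom) were alternatives. The blood fit left out V2, as the study dropped 1 blood sample and V2 stood apart. For members in the nPM contrast no p is printed, and their calls are counted without being used as evidence. Cortex CPM was scaled by TMM and blood CPM by total counts (by TMM as an alternative). Covariation used permutation tests in numpy 2.4.6. Named genes were the members, genes overlapping them, Nr2f6, the 5 genes most like Nr2f2, and of each list up to 3 genes with the smallest p (where any passed the nominal cutoff) and the most abundant. Dlx6os1 and Ahsp did not match a single row and were left out. A few marker genes of these lists are not reported here and enter none of the list values. The script was tested on simulated data. No library was a copy of another, and p-values measure the spread between these animals.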

Additional observations from a re-analysis of the deposited data

Results flagged for a closer look

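In blood, single libraries lay far from the others of their group for 4 of the 9 genes, in 6 of 27 groups examined. Chance gives about 1 in 20 for independent groups of measured values, but all 6 come from 2 libraries, V2 and V5, and the others held 5 counts or fewer, so this rate cannot be applied here. By total counts, in the control female V2, Nr2f2 was 4.06 CPM, Prox1 3.31 CPM and Nr2f1 1.79 CPM, against at most 0.147, 0.270 and 0.0495 CPM in the other control libraries. By TMM, where V2 has a factor of 6.561, these were 0.619, 0.504 and 0.274 CPM against at most 0.187, 0.413 and 0.0674 CPM, so that Prox1 in V2 no longer lay far from the others, while Nr2f2 and Nr2f1 did. In the nPM male V5, Calb2 was 1.73 CPM and Nr2f1 and Prox1 were 0.488 CPM each, against at most 0.0572, 0.0933 and 0.0572 CPM in the other nPM libraries, and all 3 also lay apart by TMM. No cortex group of the 9 genes held such a library.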

How the results depend on the processing

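No paired analysis was possible because no 2 libraries share a replicate number. The log2 fold changes of the 9 members after nPM in cortex kept within 1 SD of the replicates under all alternatives, including the fit without V10 and V15, chosen after seeing the data. That limit is loose where a change is small beside the spread of the replicates. With 1 library left out Sp8 ran from 0.02 to 0.33, Vip from -0.36 to -0.16 and Cck from -0.24 to -0.09. Prox1 and Htr3a, both near 0, changed sign in some fits without 1 library, with ranges of -0.06 to 0.07 and -0.05 to 0.15. Genes past the nominal cutoff for nPM in cortex numbered 128, and 526 when genes with a count in any library were kept, 69 without V10 and V15, and 68 (without V11) to 315 (without V23) with 1 library left out. Genes past correction numbered 3, and 22 with DESeq2, 185 with genes counted in any library, 1 without RIN, 1 with lane added, 0 without V10 and V15, and 0 to 6 with 1 library left out. For the nPM-by-sex term the number was 0 by edgeR (2018 at an unadjusted p under 0.05) and by voom, 66 with DESeq2, 379 with genes counted in any library, and 0 to 1 with 1 library left out. For sex it was 7, and 26 with DESeq2, 165 with genes counted in any library, 11 with edgeR's own filter, and 5 to 8 with 1 library left out. In blood 17 genes passed the nominal cutoff, 106 with genes counted in any library, 9 with lane added, 5 with all 12 libraries, and 11 to 37 with 1 left out. Past correction in blood there were 0 by edgeR (310 at an unadjusted p under 0.05) and by voom, 1 with DESeq2, 28 with genes counted in any library, and 0 with 1 left out. The cause of these shifts was not tested. No pair of members passed correction for covariation under any alternative, among them the 2 exposure groups taken alone, chosen after seeing the data. With 6 libraries per group, small differences in the scarcer members such as Sp8 and Htr3a could have been missed, which was not tested.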

Other observations

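Within the 6 nPM libraries alone, Sp8 and Calb2 had the same order (r = 0.93, rho = 1, exact permutation p = 0.00417 for r, adjusted 0.15 over 72 relations), and r was 0.94 without the 2 libraries farthest from the median of Sp8. In the control libraries the same pair had r = 0.51 and rho = 0.14 (exact permutation p = 0.31 for r). Within the 6 control libraries alone, Nr2f1 and Calb2 ran opposite (r = -0.92, rho = -0.94, exact permutation p = 0.00278, adjusted 0.15), with r = -0.86 without the 2 farthest, while in the nPM libraries r was -0.14 and rho -0.26 (exact permutation p = 0.772). Nr2f1 and Nr2f2 had r = 0.91 in the nPM libraries (rho = 0.83, exact permutation p = 0.0306, adjusted 0.44) and r = -0.26 in the controls (rho = -0.49, exact permutation p = 0.59). The differences between the exposure groups were not tested. None of the 72 relations passed correction.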
